A study of Mus musculus with 12 samples.

Results

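Fatty acid oxidation was followed through 34 genes in alveolar macrophages, which live in the airspace of the lung and clear surfactant lipid, with the genes chosen by name for their place in the mitochondrial and peroxisomal pathways. All 34 have a probe on the array, out of 20018 named genes there, and 33 passed the background filter and were tested among 23120 genes or transcripts. The gene not tested is Crat, carnitine acetyltransferase, whose probe reached the level for well above background on 1 array of WT, 2 of Bach1 KO, 1 of Bach2 KO and 1 of DKO. A gene that missed the filter has no level here, and the counts below are of the 33 tested genes. The choice used gene names and no measured value of these arrays, but it was made with earlier results of the same arrays known.

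The macrophages came from female C57BL/6 mice aged 8 to 9 weeks and were recovered from the lung by lavage and purified on a flow cytometer. There were 4 genotypes with 3 mice each: WT, a knockout of Bach1 (Bach1 KO), a knockout of Bach2 (Bach2 KO), and mice that lack both genes (DKO). Bach1 and Bach2 are related transcription factors of the bZIP family that mostly repress their targets. The labels name no Cre driver and no deleted exon. Each mouse gave 1 Agilent array in a single colour, and p-values measure the spread between these mice.

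Fatty acids enter oxidation as acyl-CoA esters made by synthetases. The carnitine shuttle carries long chains into mitochondria, where acyl-CoA dehydrogenases, a hydratase, a hydroxyacyl-CoA dehydrogenase and a thiolase shorten the chain turn by turn, and the electron transfer flavoprotein passes electrons to the respiratory chain. Peroxisomes shorten very long and branched chains with their own oxidases, bifunctional enzymes and thiolase. Several of these genes are known as targets of the PPAR nuclear receptors.

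Levels are given as log2 signal relative to the 75th percentile of the array, so that 0 is that percentile and a difference of 1 is a factor of 2. They can be compared between arrays for 1 gene but not between genes, because probes differ in brightness. To pass, a gene needed an adjusted p under 0.05 (limma, with Benjamini-Hochberg adjustment over the 23120 genes or transcripts), and "rose" and "fell" are used only for such genes. Differences are followed by their standard error, with 3 mice in each group. Where a gene has a dimmer probe that also passed the filter, its values come from a separate fit of 30838 probes with adjustment over those probes.

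Between 45.2% and 72.4% of spots were well above background per array, and no spot was saturated. WT, Bach1 KO and Bach2 KO replicates 1 and 2 shared 1 slide, Bach2 KO replicate 3 lay on another, and the 3 DKO arrays lay on a slide of their own, so DKO and its slide cannot be told apart. Bach1 itself stood at 3.72, 4.28 and 3.77 in WT, 2.40, 2.55 and 2.53 in Bach1 KO, 3.81, 4.12 and 3.88 in Bach2 KO and 2.59, 3.13 and 1.72 in DKO. The groups lacking Bach1 lay below WT without overlap, although the difference of -1.43 in Bach1 KO had an adjusted p of 0.304, and that of -1.44 in DKO had 0.0107. The brightest Bach2 probe was dim everywhere, at -2.42, -2.18 and -8.13 in WT and -5.29, -3.72 and -5.29 in Bach2 KO, and no Bach2 probe passed in any comparison, so the arrays do not check the Bach2 labels. The position of these probes relative to the deletions was not examined.

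Fatty acid oxidation genes were mostly lower in both genotypes without Bach2. In Bach2 KO against WT 18 of the 33 fell, 3 rose and 12 did not pass, beside 24.7% of all genes lower and 12.4% higher. In DKO against WT 16 fell, 2 rose and 15 did not pass, beside 16.6% lower and 10.6% higher over all genes. Bach1 KO against WT gave 0 higher and 0 lower, beside 0.0173% and 0.0433% of all genes. The median log2 difference of the 33 genes was -0.71 in Bach2 KO, -0.94 in DKO and -0.09 in Bach1 KO, while the medians over all genes tested were -0.30, -0.28 and -0.07. These comparisons share the WT arrays, and in sorted bulk RNA fewer cells of a type and less RNA per cell cannot be told apart. Set side by side, 15 genes fell in both Bach2-deficient genotypes, 2 rose in both, 3 fell and 1 rose in Bach2 KO alone, 1 fell in DKO alone, and 11 passed in neither.

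**Figure D1:**
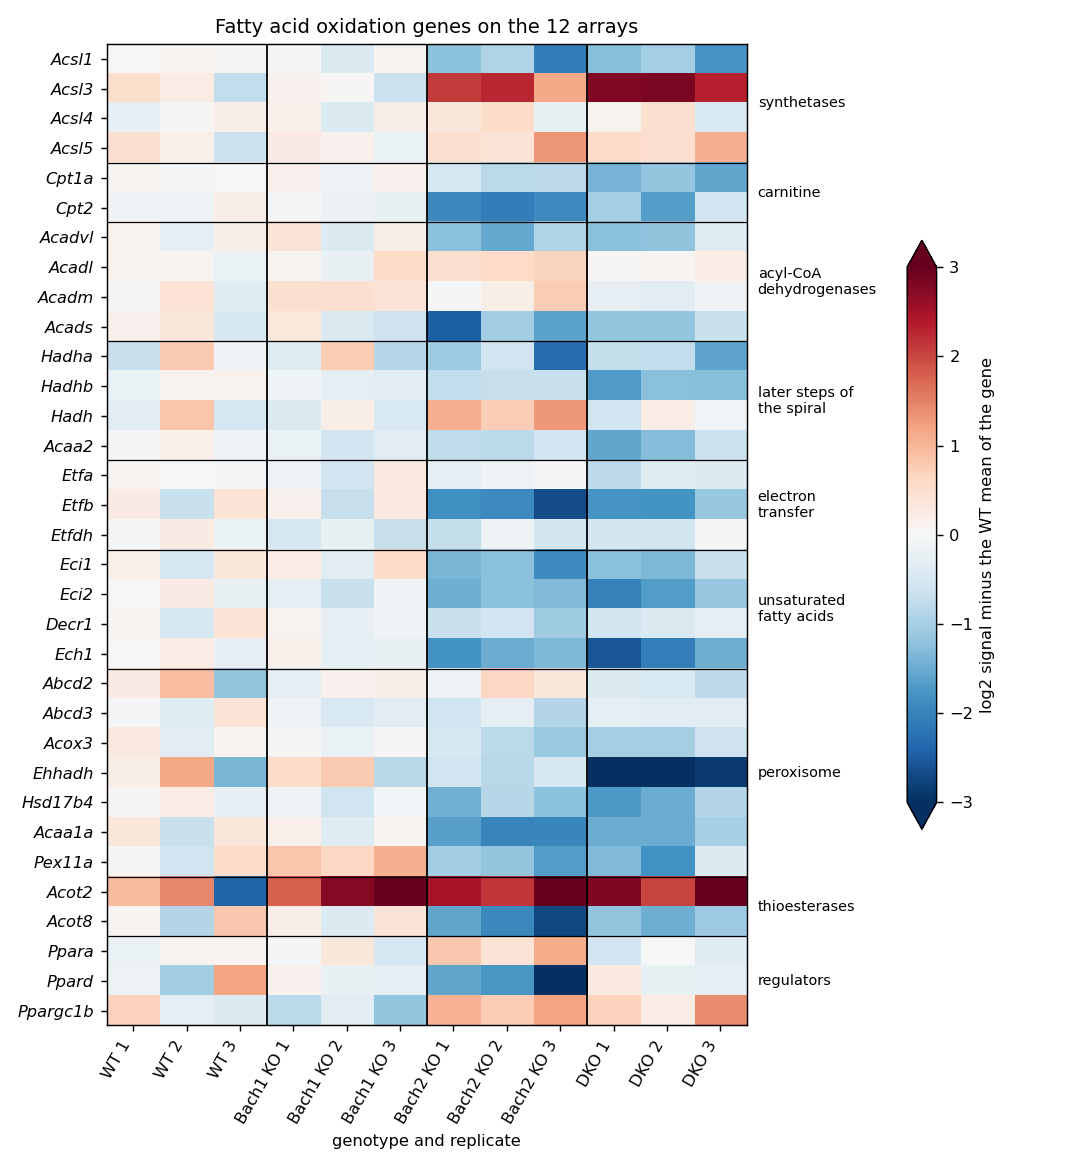
Log2 signal of the 33 tested fatty acid oxidation genes on each of the 12 arrays, minus the WT mean of the gene, with genes in rows grouped by role and arrays in columns grouped by genotype; the colour scale ends at 3 in either direction. The Bach1 KO columns stay pale for most genes, and most rows are blue in Bach2 KO and DKO, where 18 and 16 genes fell.

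The probes of these genes are bright, and brightness itself moved with genotype. Of the 33 genes, 24 lie in the brightest of 4 equal groups of all tested genes, where the median difference over all genes was -0.73 in Bach2 KO and -0.46 in DKO, and where 46.9% and 22.1% of all genes fell. The 24 genes had medians of -0.79 and -1.09, with 16 and 15 lower. Quantile normalization, which gives every array the same distribution of signals, left 11 of the 18 lower calls in Bach2 KO, with 6 higher and a median of -0.20 (18.8% of all genes lower and 15.2% higher), and 13 of the 16 in DKO, with 2 higher and a median of -0.51 (15% lower and 11.9% higher). Over all genes it raised the share of calls that were higher from 33.5% to 44.7% in Bach2 KO and from 38.9% to 44.3% in DKO. The part of brightness in the counts was not tested further. Counts by role that follow cover few genes each and stand beside these shares and those over all genes.

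**Figure D2:**
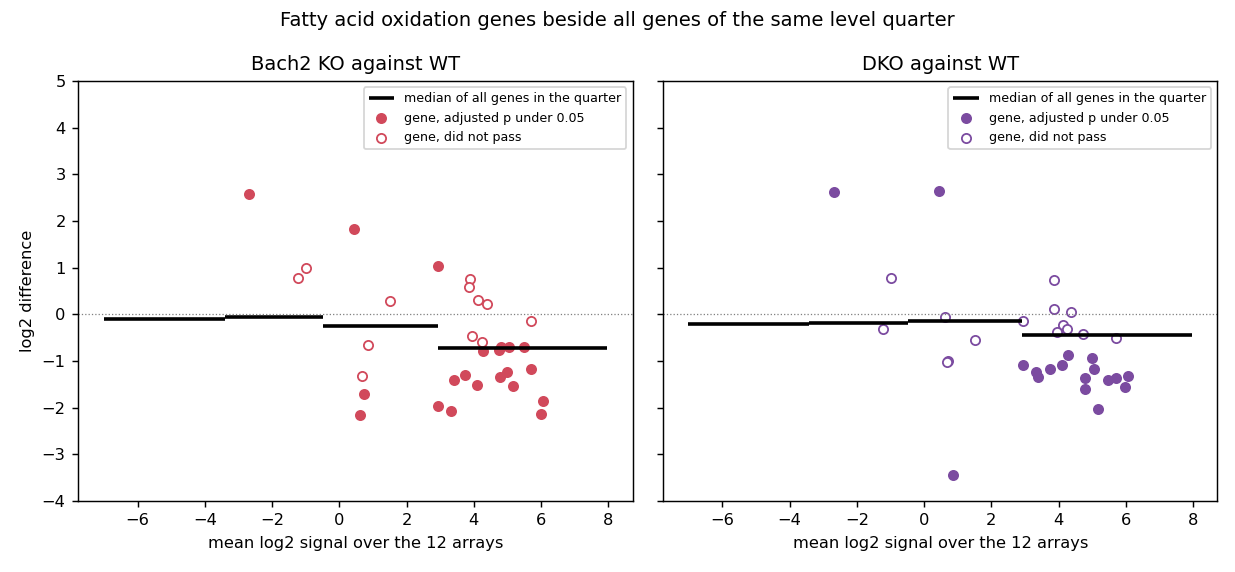
Log2 difference from WT (vertical axis) against mean log2 signal over the 12 arrays (horizontal axis) for the fatty acid oxidation genes, in Bach2 KO (left) and DKO (right); filled points passed, open points did not, and black lines give the median of all tested genes in each of 4 groups of equal size by brightness. In the brightest group the line for all genes stands at -0.73 in Bach2 KO and -0.46 in DKO, and the 24 points there have medians of -0.79 and -1.09.

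The acyl-CoA synthetases, which activate fatty acids, gave 1 higher, 1 lower and 2 not passed of 4 in both genotypes. Acsl3, a synthetase of the endoplasmic reticulum and lipid droplets, stood at -0.13, -0.43 and -1.37 in WT and -0.52, -0.61 and -1.28 in Bach1 KO, but at 1.46, 1.61 and 0.49 in Bach2 KO and 2.14, 2.19 and 1.69 in DKO. Every array without Bach2 was above every array with it. Acsl3 rose by 1.83 ± 0.40 in Bach2 KO (3.56-fold, adjusted p = 0.00484) and by 2.65 ± 0.40 in DKO (6.27-fold, adjusted p = 0.000480), and it kept both calls without any single array and under every other setting at that threshold. Acsl1, the main synthetase feeding oxidation in many tissues, fell, with a log2 difference of -1.40 ± 0.31 in Bach2 KO (adjusted p = 0.00503) and -1.36 ± 0.31 in DKO (adjusted p = 0.00722), from a WT mean of 4.11 ± 0.06 (SD). A dimmer Acsl1 probe differed by -0.25 in Bach2 KO (adjusted p = 0.624) and 0.0088 in DKO (adjusted p = 0.988), and with the mean of both probes the differences were -0.83 in Bach2 KO (adjusted p = 0.0389) and -0.67 in DKO (adjusted p = 0.0965), which ends the DKO call. Acsl5 (0.75 and 0.73) and Acsl4, which prefers arachidonic acid (0.22 and 0.04), did not pass in either genotype, although Acsl5 passed as higher in Bach2 KO with quantile normalization (1.23, adjusted p = 0.0249).

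Both measured enzymes of the carnitine shuttle fell. Cpt1a, the carnitine palmitoyltransferase of the outer membrane and the rate-limiting entry to mitochondria, measured 5.35, 5.26 and 5.30 in WT, 5.42, 5.20 and 5.44 in Bach1 KO, 4.77, 4.50 and 4.52 in Bach2 KO and 3.90, 4.14 and 3.76 in DKO. The 3 levels, WT with Bach1 KO, then Bach2 KO, then DKO, did not overlap. Cpt1a fell, with a log2 difference of -0.71 ± 0.18 in Bach2 KO (1.63-fold, adjusted p = 0.009996) and -1.37 ± 0.18 in DKO (2.58-fold, adjusted p = 0.000161), while the step from Bach2 KO to DKO of -0.66 ± 0.18 missed the threshold (adjusted p = 0.0682). With quantile normalization the Bach2 KO difference was -0.06 (adjusted p = 0.809) and that of DKO -0.97 (adjusted p = 0.00215). Cpt2, the inner-membrane partner, measured 3.64, 3.63 and 3.95 in WT, 3.70, 3.58 and 3.51 in Bach1 KO, 1.81, 1.66 and 1.83 in Bach2 KO and 2.72, 2.09 and 3.14 in DKO. It fell 3.93-fold in Bach2 KO (-1.98 ± 0.26, adjusted p = 0.000173) and 2.13-fold in DKO (-1.09 ± 0.26, adjusted p = 0.00855). DKO was the less reduced of these genotypes for Cpt2 on every array, with a difference of 0.88 ± 0.26 from Bach2 KO that did not pass (adjusted p = 0.0829). Dimmer probes did not follow: for Cpt1a the other probe differed by 0.76 in Bach2 KO (adjusted p = 0.386) and 0.0026 in DKO (adjusted p = 0.998), and for Cpt2 by 2.39 (adjusted p = 0.130) and 2.03 (adjusted p = 0.212).

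Among the 4 mitochondrial acyl-CoA dehydrogenases, which differ in the chain length they accept, 2 fell in Bach2 KO and 1 in DKO. Acads, for short chains, stood at 1.60, 1.79 and 0.99 in WT, 1.77, 1.02 and 0.83 in Bach1 KO, -0.99, 0.41 and -0.16 in Bach2 KO and 0.30, 0.29 and 0.79 in DKO. All 6 arrays without Bach2 lay below all WT and Bach1 KO arrays. Acads fell, with a log2 difference of -1.70 ± 0.39 in Bach2 KO (adjusted p = 0.00619), and the DKO difference of -0.999 ± 0.39 did not pass (adjusted p = 0.0796). Acadvl, for very long chains, fell, with a log2 difference of -1.23 ± 0.30 in Bach2 KO (adjusted p = 0.00774) and -0.94 ± 0.30 in DKO (adjusted p = 0.0352). The DKO call of Acadvl was lost without WT replicate 1 or 3, Bach2 KO replicate 1, or DKO replicate 1 or 2 (adjusted p up to 0.124), and with quantile normalization neither Bach2 KO (-0.59, adjusted p = 0.0795) nor DKO (-0.50, adjusted p = 0.146) passed. Acadl, for long chains (0.59 and 0.11), and Acadm, for medium chains (0.30 and -0.23), did not pass in either genotype. Acadl passed as higher in Bach2 KO with quantile normalization (1.08, adjusted p = 0.00316).

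Of the 4 genes for the later steps of the mitochondrial spiral, 2 fell in both genotypes and Hadh rose in Bach2 KO. Hadhb, the thiolase subunit of the trifunctional protein, fell, with a log2 difference of -0.70 ± 0.18 in Bach2 KO (adjusted p = 0.0117) and -1.41 ± 0.18 in DKO (adjusted p = 0.000156), from a WT mean of 6.07 ± 0.17 (SD) to 5.37 ± 0.04 and 4.67 ± 0.25. Hadha, which encodes the other subunit, differed by -1.31 ± 0.55 in Bach2 KO (adjusted p = 0.0803) and -1.02 ± 0.55 in DKO (adjusted p = 0.185), with a wide WT spread of 1.31 ± 0.74. Acaa2, the mitochondrial thiolase, fell, with a log2 difference of -0.71 ± 0.24 in Bach2 KO (adjusted p = 0.0358) and -1.16 ± 0.24 in DKO (adjusted p = 0.00379). The Bach2 KO call of Acaa2 was lost without any single WT or Bach2 KO array (adjusted p 0.0537 to 0.0932). With quantile normalization the Bach2 KO differences of Hadhb and Acaa2 turned to 0.12 (adjusted p = 0.669) and 0.0085 (adjusted p = 0.981), whereas in DKO they were -0.91 (adjusted p = 0.00555) and -0.72 (adjusted p = 0.0358). Hadh, the hydroxyacyl-CoA dehydrogenase for shorter chains, measured 2.47, 3.60 and 2.26 in WT, 2.35, 2.95 and 2.31 in Bach1 KO, 3.86, 3.51 and 4.09 in Bach2 KO and 2.18, 3.01 and 2.70 in DKO. WT replicate 2 overlapped the Bach2 KO arrays, and the DKO arrays overlapped those of WT. Hadh rose by 1.04 ± 0.36 in Bach2 KO (adjusted p = 0.0418), a call lost without any of WT replicates 1 and 3, Bach1 KO replicate 1, Bach2 KO replicates 1 and 3, or DKO replicate 3 (adjusted p 0.0520 to 0.148).

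Hadha and Hadhb lie head to head, and the stretch they share is shown because both subunits are read from it in opposite directions. Their RefSeq starts in GRCm38.p6 are 273 bases apart, with Hadhb on the forward strand. The 250 bases before the Hadhb start, chr5:30155003-30155252 on the forward strand, follow 5′ to 3′, with the 228 bases that are also within 250 bases before the Hadha start in capitals, and 58.8% of the bases are G or C.
Hadhb upstream: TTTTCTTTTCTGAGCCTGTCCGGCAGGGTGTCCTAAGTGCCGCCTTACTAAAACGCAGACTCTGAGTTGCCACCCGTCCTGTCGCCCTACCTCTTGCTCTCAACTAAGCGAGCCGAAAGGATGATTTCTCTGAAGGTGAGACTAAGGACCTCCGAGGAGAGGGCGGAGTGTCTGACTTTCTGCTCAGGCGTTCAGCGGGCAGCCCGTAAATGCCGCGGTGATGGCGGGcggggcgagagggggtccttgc

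Of 3 genes that carry electrons out of the dehydrogenases, 1 fell in both genotypes. Etfb, the beta subunit of the electron transfer flavoprotein, measured 7.18, 6.27 and 7.35 in WT, 7.06, 6.25 and 7.22 in Bach1 KO, 5.10, 5.02 and 4.27 in Bach2 KO and 5.17, 5.14 and 5.79 in DKO. Each array without Bach2 lay below each array with it. Etfb fell 4.41-fold in Bach2 KO (-2.14 ± 0.36, adjusted p = 0.00102) and 2.97-fold in DKO (-1.57 ± 0.36, adjusted p = 0.00745), and kept both calls under every other setting at that threshold, with -1.35 and -0.99 after quantile normalization. Etfa, the alpha subunit, did not pass (-0.15 and -0.52), nor did Etfdh, which hands the electrons to ubiquinone (-0.48 and -0.38). A dimmer Etfa probe was higher in Bach2 KO by 1.53 (adjusted p = 0.0111), and the brightest one passed as higher there with quantile normalization (0.71, adjusted p = 0.00913).

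All 4 enzymes that prepare unsaturated fatty acids for oxidation fell in Bach2 KO, and 3 of them fell in DKO. Ech1, a dienoyl-CoA isomerase, measured 6.10, 6.32 and 5.83 in WT, 6.23, 5.81 and 5.86 in Bach1 KO, 4.30, 4.60 and 4.72 in Bach2 KO and 3.51, 4.03 and 4.61 in DKO. It fell 2.91-fold in Bach2 KO (-1.54 ± 0.27, adjusted p = 0.00144) and 4.08-fold in DKO (-2.03 ± 0.27, adjusted p = 0.000206). The isomerase Eci2 measured 5.61, 5.86 and 5.38 in WT, 5.35, 4.94 and 5.48 in Bach1 KO, 4.15, 4.38 and 4.28 in Bach2 KO and 3.60, 3.95 and 4.47 in DKO, and fell, with a log2 difference of -1.34 ± 0.25 (adjusted p = 0.00185) and -1.61 ± 0.25 (adjusted p = 0.000555). For Eci1, its mitochondrial relative, the values were 4.85, 4.20 and 5.04 in WT, 4.91, 4.39 and 5.26 in Bach1 KO, 3.32, 3.44 and 2.81 in Bach2 KO and 3.44, 3.36 and 4.02 in DKO. For all of these isomerases the arrays without Bach2 lay below those with it, with no overlap. Eci1 fell, with a log2 difference of -1.51 ± 0.31 in Bach2 KO (adjusted p = 0.00343) and -1.09 ± 0.31 in DKO (adjusted p = 0.0225), and its DKO call was lost without WT replicate 1 or 3 or DKO replicate 1 or 2 (adjusted p 0.0712 to 0.0839). After quantile normalization the Bach2 KO differences of Ech1 and Eci2 were -0.83 (adjusted p = 0.0420) and -0.69 (adjusted p = 0.0364). Decr1, the dienoyl-CoA reductase, fell, with a log2 difference of -0.77 ± 0.24 in Bach2 KO (adjusted p = 0.0273) and differed by -0.42 ± 0.24 in DKO (adjusted p = 0.219). The Bach2 KO call of Decr1 was lost without WT replicate 1 or 3 or Bach2 KO replicate 1 or 3 (adjusted p 0.0529 to 0.107), and its dimmer probe differed by 1.70 in the other direction (adjusted p = 0.0924).

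**Figure D3:**
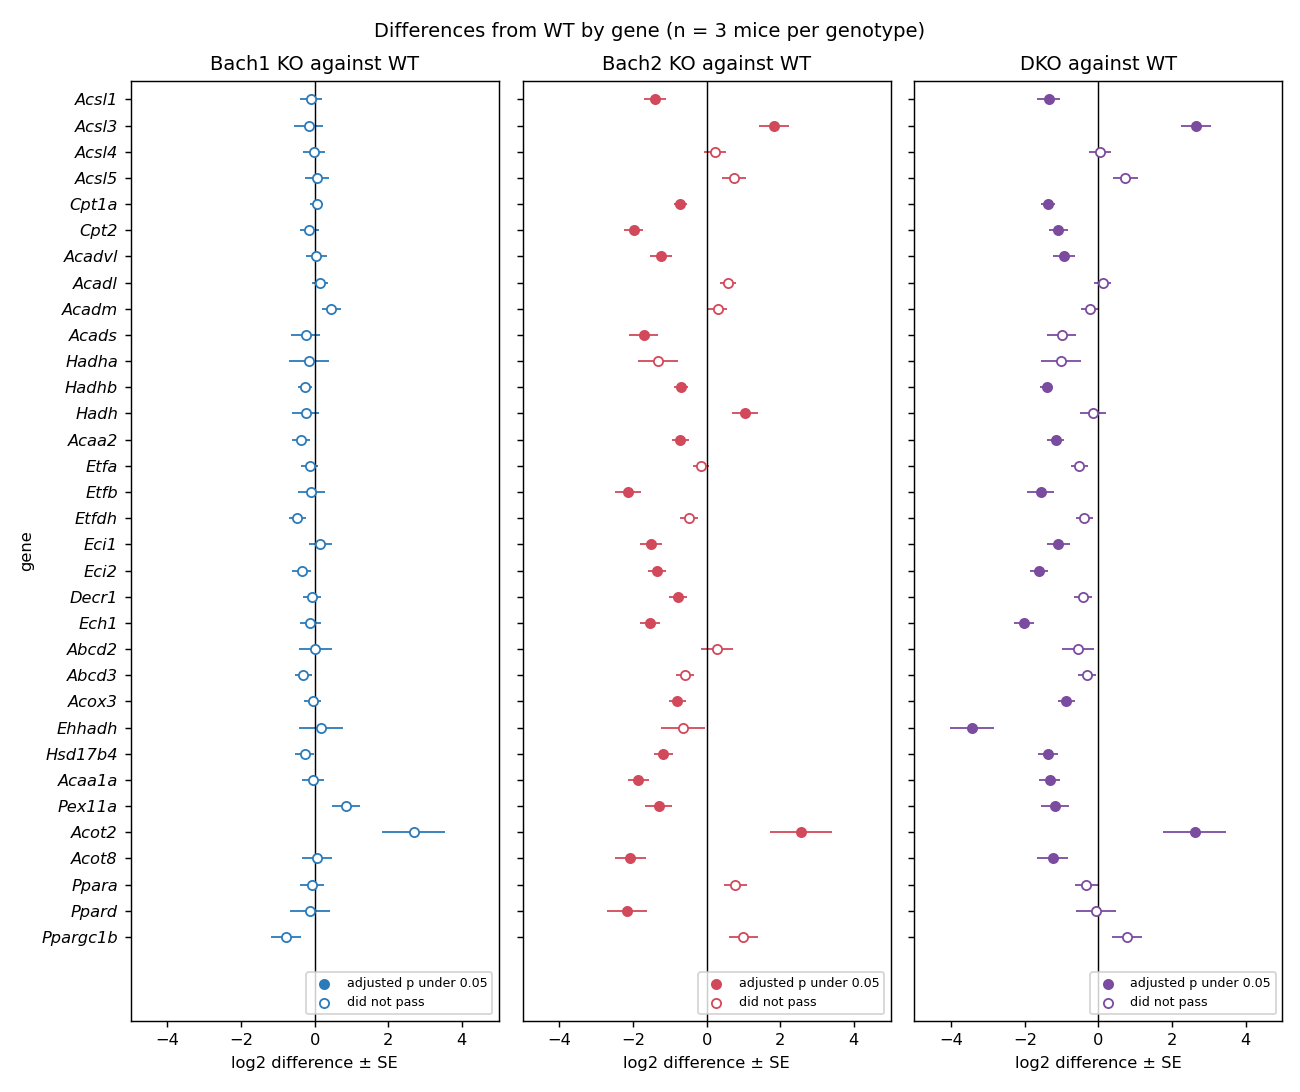
Log2 difference from WT with its standard error (horizontal axis) for each tested fatty acid oxidation gene (rows, in order of role), in Bach1 KO, Bach2 KO and DKO; filled points passed at an adjusted p under 0.05 and open points did not. No point is filled in the Bach1 KO panel, and 21 and 18 points are filled in the Bach2 KO and DKO panels.

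Peroxisomal enzymes and transporters gave 4 lower of 7 in Bach2 KO and 5 of 7 in DKO, with none higher. Beside them, 24.7% and 16.6% of all genes were lower, and 46.9% and 22.1% of all genes in the brightest group. Acaa1a, the peroxisomal thiolase, measured 7.21, 6.19 and 7.20 in WT, 7.01, 6.49 and 6.95 in Bach1 KO, 5.24, 4.88 and 4.91 in Bach2 KO and 5.39, 5.38 and 5.87 in DKO. It fell 3.61-fold in Bach2 KO (-1.85 ± 0.29, adjusted p = 0.000589) and 2.50-fold in DKO (-1.32 ± 0.29, adjusted p = 0.00548), without overlap with WT, and by -1.02 and -0.72 after quantile normalization. Its near-identical copy Acaa1b has a probe of its own, and whether the probes tell the copies apart was not tested. Ehhadh, the L-bifunctional enzyme, measured 2.03, 2.99 and 0.45 in WT, 2.38, 2.61 and 0.99 in Bach1 KO, 1.22, 0.98 and 1.33 in Bach2 KO and -2.22, -1.60 and -1.04 in DKO. WT was spread widely, the Bach2 KO arrays lay inside its range, and the DKO arrays lay below all others. Ehhadh fell 10.9-fold in DKO (-3.45 ± 0.60, adjusted p = 0.00128), and its Bach2 KO difference was -0.65 ± 0.60 (adjusted p = 0.419).

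Hsd17b4, the D-bifunctional enzyme, fell, with a log2 difference of -1.18 ± 0.26 in Bach2 KO (adjusted p = 0.00521) and -1.37 ± 0.26 in DKO (adjusted p = 0.00240), which became -0.38 (adjusted p = 0.218) and -0.86 (adjusted p = 0.0161) with quantile normalization. Acox3, an oxidase of branched chains, fell, with a log2 difference of -0.80 ± 0.23 (adjusted p = 0.0199) and -0.87 ± 0.23 (adjusted p = 0.0172). Its Bach2 KO call was lost without WT replicate 1 or 3 or Bach2 KO replicate 3 (adjusted p up to 0.0843) and with quantile normalization (-0.26, adjusted p = 0.262). Its DKO call was lost without WT replicate 1 or DKO replicate 1 or 2 (adjusted p up to 0.0733; -0.51, adjusted p = 0.0495, with quantile normalization). Pex11a, a peroxin of peroxisome division, fell, with a log2 difference of -1.30 ± 0.37 (adjusted p = 0.0183) and -1.18 ± 0.37 (adjusted p = 0.0364). The Bach2 KO call of Pex11a was lost without WT replicate 1 or 3 or Bach2 KO replicate 3 (adjusted p up to 0.0731). The DKO call was lost without WT replicate 1 or 3 or DKO replicate 1 or 2 (adjusted p up to 0.137). Abcd2 (0.28 and -0.55) and Abcd3 (-0.59 and -0.31), which carry acyl-CoA into peroxisomes, did not pass in Bach2 KO or DKO.

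The acyl-CoA thioesterases, which release free fatty acids from CoA, moved in opposite directions: 1 fell and 1 rose in both genotypes. Acot8, of peroxisomes, measured 4.22, 3.27 and 4.95 in WT, 4.36, 3.74 and 4.53 in Bach1 KO, 2.59, 2.22 and 1.42 in Bach2 KO and 2.97, 2.68 and 3.06 in DKO. It fell 4.21-fold in Bach2 KO (-2.07 ± 0.42, adjusted p = 0.00300) and 2.37-fold in DKO (-1.25 ± 0.42, adjusted p = 0.0448), and a dimmer probe differed by -1.60 (adjusted p = 0.00111) and -1.35 (adjusted p = 0.00336). The DKO call of the brighter probe was lost without WT replicate 1 or 3, Bach1 KO replicate 1 or 3, Bach2 KO replicate 2 or any DKO replicate (adjusted p 0.0503 to 0.167), and without WT replicate 3 the difference was -0.84. Acot2, of mitochondria, measured -3.69, -3.21 and -7.05 in WT, -2.89, -1.91 and -1.07 in Bach1 KO, -2.17, -2.51 and -1.55 in Bach2 KO and -1.84, -2.63 and -1.63 in DKO. WT replicate 3, where the probe was not well above background, was far below every other array. The Acot2 probe thus passed the filter through the other genotypes and not through WT. Acot2 rose by 2.57 ± 0.85 in Bach2 KO (adjusted p = 0.0336) and 2.61 ± 0.85 in DKO (adjusted p = 0.0400). Without WT replicate 3 these differences were 1.37 (adjusted p = 0.0799) and 1.41 (adjusted p = 0.0913), and with normexp background correction 1.45 (adjusted p = 0.0242) and 1.47 (adjusted p = 0.0305). The calls were also lost without any Bach2 KO replicate in Bach2 KO (adjusted p up to 0.108), and without any DKO replicate, Bach1 KO replicate 2, or Bach2 KO replicate 1 or 2 in DKO (adjusted p up to 0.106). Leaving out WT replicate 3 or Bach2 KO replicate 1 or 3 therefore left 1 gene higher in Bach2 KO in place of 3, and each array named for the DKO call of Acot2 left 1 in place of 2.

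Of the regulators on the list, 1 receptor fell. Ppard, the PPAR delta receptor, measured 1.05, 0.17 and 2.40 in WT, 1.33, 0.98 and 0.91 in Bach1 KO, -0.34, -0.54 and -1.97 in Bach2 KO and 1.51, 0.98 and 0.97 in DKO. The Bach2 KO arrays lay below all others, and the DKO arrays lay in the WT range. Ppard fell 4.47-fold in Bach2 KO (-2.16 ± 0.54, adjusted p = 0.00942) but differed by -0.06 ± 0.54 in DKO (adjusted p = 0.947), and DKO was 2.11 ± 0.54 above Bach2 KO (adjusted p = 0.0568). Within the slide that holds WT and Bach2 KO replicates 1 and 2, the Bach2 KO difference was -1.65 (adjusted p = 0.0738). Ppara, the PPAR alpha receptor and main inducer of this pathway in liver, measured -1.52, -1.22 and -1.23 in WT, -1.37, -0.98 and -1.83 in Bach1 KO, -0.51, -0.91 and -0.21 in Bach2 KO and -1.90, -1.34 and -1.71 in DKO. Its Bach2 KO arrays lay above all WT arrays, but neither 0.78 ± 0.32 in Bach2 KO (adjusted p = 0.0743) nor -0.33 ± 0.32 in DKO (adjusted p = 0.462) passed. Ppargc1b, a coactivator of mitochondrial genes, measured -0.55, -1.54 and -1.66 in WT, -2.06, -1.60 and -2.44 in Bach1 KO, -0.20, -0.49 and -0.06 in Bach2 KO and -0.55, -1.03 and 0.17 in DKO. All Bach1 KO arrays were below all Bach2 KO and DKO arrays, and the differences from WT of 1.001 ± 0.40 in Bach2 KO (adjusted p = 0.0712) and 0.78 ± 0.40 in DKO (adjusted p = 0.168) did not pass.

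**Figure D4:**
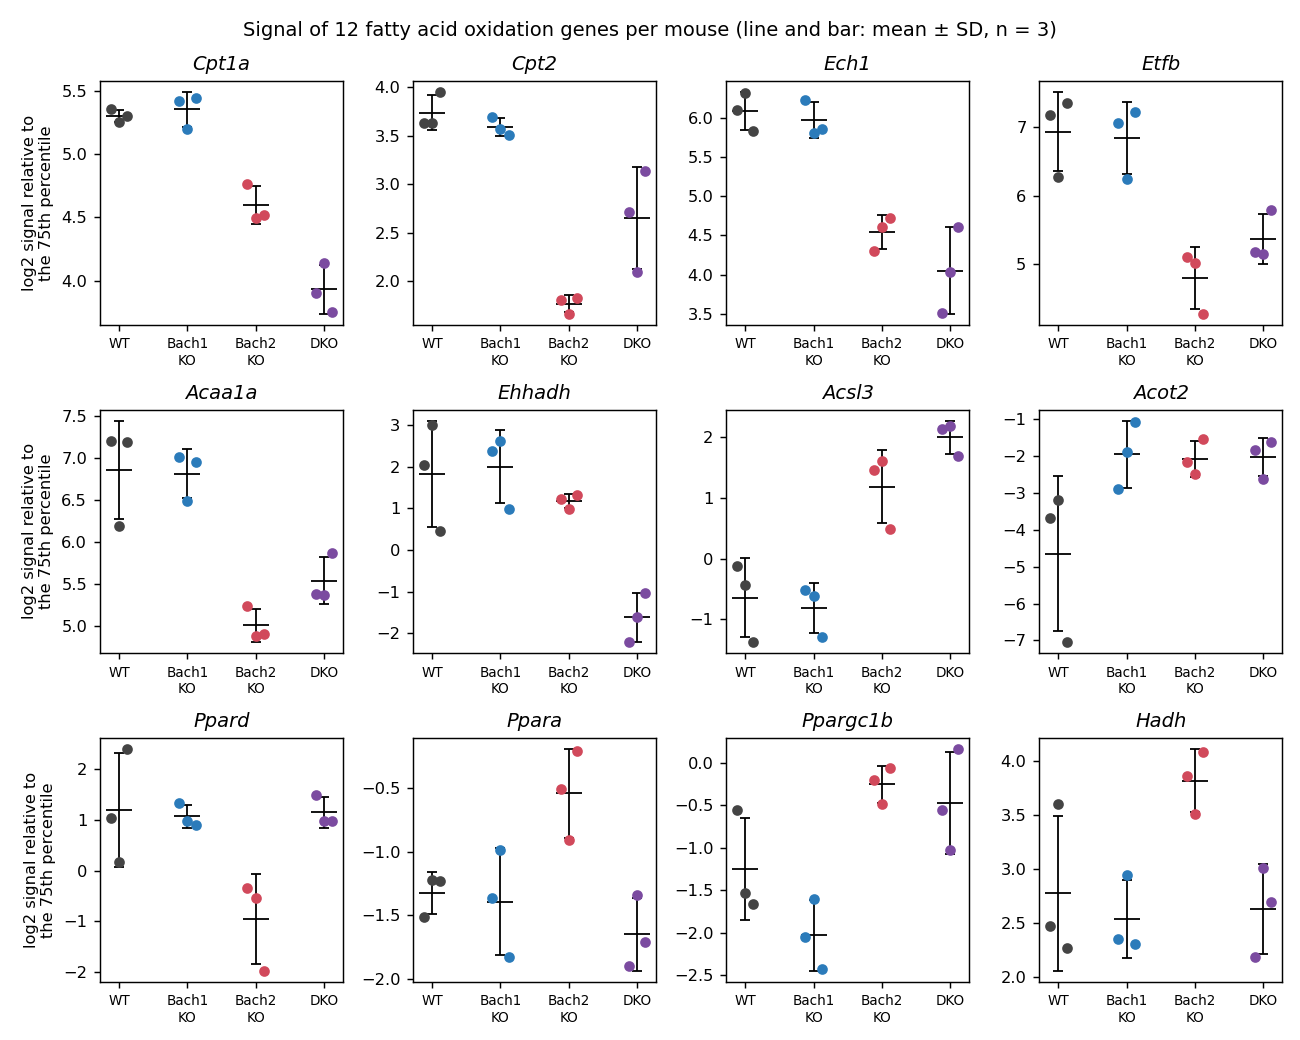
Log2 signal relative to the 75th percentile of the array (vertical axes, different for each gene) of 12 fatty acid oxidation genes in the 3 mice of each genotype, with the mean and SD as a line and bar. Cpt1a steps down from WT to Bach2 KO to DKO, Ehhadh is lowest in DKO, Ppard is lowest in Bach2 KO, and Acot2 has 1 WT array at -7.05.

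Counted by separation alone, 19 of the 33 genes had all Bach2 KO arrays below all WT arrays and 5 had them above, beside 33.4% and 17.2% of all genes. In DKO these numbers were 18 and 3, beside 29.1% and 15.8%. Within the shared slide alone, Bach2 KO replicates 1 and 2 against WT gave 15 lower and 1 higher, with a median of -0.72. With slide as a random block 18 fell and 3 rose in Bach2 KO, and 15 fell and 1 rose in DKO. The shares of all genes in these slide settings are not given here, so these counts alone do not set the fatty acid oxidation genes apart. Under all alternatives at an adjusted p of 0.05 that held the gene, 8 of the 18 lower genes kept their call in Bach2 KO (Acaa1a, Acads, Acot8, Acsl1, Ech1, Eci1, Eci2 and Etfb), and 8 of the 16 in DKO (Acaa1a, Acaa2, Ech1, Eci2, Ehhadh, Etfb, Hadhb and Hsd17b4). Acads entered 25 alternatives in Bach2 KO, and the other genes kept there entered 26.

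Loss of Bach1 alone gave no call among the 33 genes. Their differences from WT ran from -0.78 to 2.69, 2 genes had an unadjusted p under 0.05, and the smallest adjusted p was 0.546. These 2 genes were Acot2 (2.69 ± 0.85, adjusted p = 0.546) and Pex11a (0.84 ± 0.37, adjusted p = 0.920), named after their values were seen. Pex11a measured 4.19, 3.55 and 4.70 in WT and 4.99, 4.77 and 5.22 in Bach1 KO, so that the groups did not overlap, which held upwards for 2 of the 33 genes and 2.5% of all genes. Downwards it held for 2 genes, Acaa2 and Etfdh, beside 4.28% of all genes.

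DKO was also set against each mutant of 1 gene. Against Bach1 KO, which differs from it in Bach2, 16 genes fell and 2 rose, beside 15.3% and 10.9% of all genes, and the median was -0.80 against -0.21 over all genes. The largest decreases were Ehhadh (-3.61 ± 0.60, adjusted p = 0.000957), Pex11a (-2.02 ± 0.37, adjusted p = 0.00203) and Ech1 (-1.91 ± 0.27, adjusted p = 0.000332). The genes that rose were Acsl3 (2.81 ± 0.40, adjusted p = 0.000319) and Ppargc1b (1.56 ± 0.40, adjusted p = 0.0146), the latter not without Bach1 KO replicate 3 or DKO replicate 3 (adjusted p 0.0522 and 0.0597). Without DKO replicate 2 only 10 genes passed as lower.

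Against Bach2 KO, which differs from DKO in Bach1, 1 gene fell and 0 rose, beside 2.12% and 1.45% of all genes, with a median of -0.02 against 0.03. The gene was Ehhadh, with a log2 difference of -2.80 ± 0.60 (6.95-fold, adjusted p = 0.0283), and its call was lost without any Bach2 KO replicate or DKO replicate 1 or 2 (adjusted p 0.0608 to 0.124). Without overlap, 7 genes were higher and 9 lower in DKO than in Bach2 KO, beside 18.6% and 16.5% of all genes. With quantile normalization 1 gene, Ppard, passed as higher and 4, Ehhadh, Cpt1a, Etfa and Hadhb, as lower, beside 2.46% and 3.38% of all genes.

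The interaction, which asks whether loss of both genes differs from the sum of the separate losses, passed for 0 of the 33 genes, beside 0.104% of all genes higher and 0.571% lower. Unadjusted, 7 genes had a p under 0.05, and the smallest adjusted p was that of Ehhadh (-2.96 ± 0.85, adjusted p = 0.167). For Ppard, low in Bach2 KO and in the WT range in DKO, the interaction was 2.24 ± 0.77 (adjusted p = 0.228). A p that misses the threshold does not show that the losses add up.

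Promoters were searched for 3 motifs because PPAR receptors bind a direct repeat, and Bach factors bind Maf recognition elements that hold an AP-1 or antioxidant response core. RefSeq promoters of GRCm38.p6, each 250 bases before to 50 after a start, were found for 28 of the 34 genes; Decr1, Crat, Abcd2, Hsd17b4, Acaa2 and Ppargc1b had no entry in the table used. A direct repeat of AGGTCA with 1 base between the copies and at most 2 mismatches, on either strand, was found in 1 of 28 genes (3.57%), Etfa, beside 3.86% of 32851 promoters. TGACTCA, which reads TGAGTCA on the other strand, was found in 1 (3.57%), Acadvl, beside 5.2%, and TGANNNNGC, on either strand, in 11 (39.3%) beside 41.3%. These shares were close to the background of all promoters, and a match is a description of letters, not of a bound site. Stretches are given 5′ to 3′ in the direction of the gene, with the match in capitals, for the gene with the repeat and for every gene that fell in Bach2 KO or DKO and whose match lies, with its flanks, before the start.
Etfa, chr9:55512288-55512340, reverse strand, direct repeat on the opposite strand: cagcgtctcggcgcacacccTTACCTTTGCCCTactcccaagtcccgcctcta
Acaa1a, chr9:119341240-119341288, forward strand, TGANNNNGC: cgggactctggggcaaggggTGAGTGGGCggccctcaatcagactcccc
Acot8, chr2:164805018-164805066, reverse strand, TGANNNNGC on the opposite strand: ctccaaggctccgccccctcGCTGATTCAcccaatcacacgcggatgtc
Acox3, chr5:35582796-35582844, forward strand, TGANNNNGC: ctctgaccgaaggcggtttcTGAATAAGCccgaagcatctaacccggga
Acox3, chr5:35582928-35582976, forward strand, TGANNNNGC: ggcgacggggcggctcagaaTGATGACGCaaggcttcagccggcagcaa
Acsl1, chr8:46470922-46470970, forward strand, TGANNNNGC: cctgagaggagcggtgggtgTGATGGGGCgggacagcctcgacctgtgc
Ehhadh, chr16:21787971-21788019, reverse strand, TGANNNNGC: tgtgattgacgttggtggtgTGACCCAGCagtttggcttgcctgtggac

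Genes next to these in lipid oxidation were followed as 5 lists of 135 genes, of which 133 are on the array, and their counts stand beside the shares and medians of all genes given above. The first list, of mitochondrial fatty acid and ketone enzymes outside the 34, also holds a cytosolic thioesterase and enzymes of amino acid breakdown. Its counts therefore cover more than that pathway. Of its 23 tested genes, 9 fell and 4 rose in Bach2 KO, with a median of -0.49. In DKO 4 fell and 4 rose, with a median of -0.39. Acot1, a cytosolic thioesterase, stood at 5.86, 5.21 and 5.15 in WT, 5.56, 5.04 and 5.80 in Bach1 KO, -2.42, -2.48 and -3.17 in Bach2 KO and -2.13, -1.83 and -1.51 in DKO. Each array without Bach2 lay far below each array with it, with differences of -8.10 ± 0.32 (adjusted p = 4.46e-08) and -7.23 ± 0.32 (adjusted p = 4.35e-08). Acot1 and Acot2 are close relatives, and whether their probes share signal was not tested. Acsf3, a mitochondrial synthetase, fell in Bach2 KO (-1.55), while Ivd (1.30 and 1.33), Pcca (1.70 and 1.31) and Acadsb (3.59 and 2.53), which serve amino acid breakdown, rose in both. Without WT replicate 3 Acadsb differed by 2.33 (adjusted p = 0.000743) and 1.28 (adjusted p = 0.0231). Its DKO call was lost without any DKO replicate (adjusted p up to 0.106), and that of Pcca without WT replicate 3 or DKO replicate 3 (adjusted p up to 0.0561). The 9 lower calls in Bach2 KO became 4 or 5 without WT replicate 1 or 3 or Bach2 KO replicate 1, and the 4 higher calls in DKO became 2 without DKO replicate 3.

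Of 29 tested peroxisomal lipid enzymes and transporters outside the 34, 12 fell and 5 rose in Bach2 KO, with a median of -0.52, and 9 fell and 3 rose in DKO, with a median of -0.51. The peroxisomal thioesterases Acot5 (-5.15 and -5.28) and Acot4 (-3.45 and -4.06) and the thiolase Acaa1b (-2.76 and -2.69) fell in both. With the filter on all 12 arrays another probe stood for Acot5, and its differences were -1.38 (adjusted p = 0.0242) and -1.40 (adjusted p = 0.0308). Acot6, another member of that family, did not rise above background in any of the WT mice. It was at least 15.1-fold higher in Bach2 KO (adjusted p = 1.78e-05) and at least 10.8-fold higher in DKO (adjusted p = 2.90e-05). Its probe could pass the filter only through genotypes other than WT, so these p-values add no support to the bounds. With normexp background correction, which adds an offset of 50 to each signal, the fitted log2 differences of Acot6 were 1.37 (adjusted p = 0.000501) and 1.06 (adjusted p = 0.00302), below those bounds. Ephx2, a soluble epoxide hydrolase (2.50), and Acox2, an oxidase of bile acid precursors (2.19), rose in Bach2 KO, the latter not with normexp background correction (0.57, adjusted p = 0.0539) or on slide 1 alone (2.08, adjusted p = 0.0753). The 5 higher calls in Bach2 KO became 3 without WT replicate 1, Bach1 KO replicate 1 or Bach2 KO replicate 3, or with the filter on all 12 arrays, and 2 on slide 1 alone; with that filter the 3 in DKO became 1.

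Of 15 tested peroxins, which build peroxisomes, 3 fell and 1 rose in Bach2 KO and 2 fell and 1 rose in DKO. Pex26 rose (2.48 and 2.49), while Pex16 (-1.46 and -1.37) and Pex11g (-2.10 and -1.65) fell, and Pex14 fell in Bach2 KO (-1.13). The DKO call of Pex11g was lost without WT replicate 1 or 3 or DKO replicate 1 or 2 (adjusted p up to 0.0689), which left 1 lower peroxin. The Bach2 KO call of Pex14 was lost without WT replicate 1 or Bach2 KO replicate 1 or 3 (adjusted p up to 0.0877). Without WT replicate 2 the Bach2 KO counts were 5 lower and 2 higher. With quantile normalization 3 were higher in Bach2 KO, beside 15.2% of all genes. With scaling to the array median 5 were lower there, beside 30% of all genes.

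Among 34 PPAR partners, targets and mitochondrial regulators, 12 fell and 2 rose in Bach2 KO and 10 fell and 2 rose in DKO. In DKO 4 rose without Bach1 KO replicate 3, with the series matrix, or with WT and DKO fitted alone. Angptl4, a PPAR target that inhibits lipoprotein lipase (-2.69 and -3.05), the coactivator Ncoa1 (-2.35 and -1.40) and the receptor partner Rxrb (-2.17 and -1.29) fell. The DKO call of Rxrb was lost without WT replicate 1 or 3 or DKO replicate 2 (adjusted p up to 0.0609), and was -0.82 (adjusted p = 0.0239) after quantile normalization. Cd36, a scavenger receptor for fatty acids and also a PPAR target, rose (2.51 and 2.33), as did the fatty acid transporter Slc27a1 (1.88 and 2.57). Of 21 tricarboxylic acid cycle enzymes, which burn the acetyl-CoA that oxidation yields, 4 fell and 2 rose in Bach2 KO, with a median of -0.33, and 2 fell and 0 rose in DKO, with a median of -0.38. Idh3g (-1.57 and -1.18) fell in both genotypes, and Mdh2 (-1.16) and Dlst (-0.83) fell in Bach2 KO, where Pdha1 (1.34) and Suclg2 (1.24) rose. With quantile normalization 1 cycle enzyme was lower and 8 were higher in Bach2 KO, beside 18.8% and 15.2% of all genes. Scaling to the array median gave 8 lower there, beside 30% of all genes. Under quantile normalization Mdh2 differed by -0.27 (adjusted p = 0.173) and Dlst by -0.16 (adjusted p = 0.432), and Idh3g by -0.80 in Bach2 KO (adjusted p = 0.00643) and -0.63 in DKO (adjusted p = 0.0249). Pdha1 did not pass without Bach2 KO replicate 3 (adjusted p = 0.0518), nor Suclg2 without WT replicate 1 or 3 or Bach2 KO replicate 2 or 3 (adjusted p up to 0.120). In Bach2 KO 1 cycle enzyme rose without WT replicate 1 or 3 or Bach2 KO replicate 2 and 0 without Bach2 KO replicate 3, while 8 fell without WT replicate 2 and 7 without DKO replicate 3. In DKO 1 cycle enzyme fell without WT replicate 1 or DKO replicate 1 or 2, 5 fell without DKO replicate 3, and 1 rose without WT replicate 2.

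Markers of the sorted cells and of other cell types moved with the same genotypes. Of 14 alveolar macrophage markers, 13 were well above background on all 12 arrays. Their summed linear signal, in multiples of the 75th percentile, was 1588 to 2016 in WT, 1137 to 1861 in Bach1 KO, 514 to 717 in Bach2 KO and 482 to 750 in DKO. Single markers differed in size. Means in WT, Bach2 KO and DKO lay nearer together for Chil3 (8.18, 7.43 and 7.58), Fabp4 (6.93, 6.35 and 6.30) and Itgax (6.41, 5.70 and 6.49). Even these means were lower in Bach2 KO than in WT, by amounts similar to the median difference of the fatty acid oxidation genes there. Means were far apart for Siglecf (5.74, -0.59 and -2.56), Marco (7.91, 2.62 and -0.19), Krt79 (7.71, 2.23 and -0.72) and Cidec (6.45, -1.92 and -6.20). Pparg had means of 5.82, 4.83 and 4.94. The 12 monocyte and interstitial macrophage markers on the array summed to 112 to 162 in WT, 236 to 306 in Bach2 KO and 254 to 372 in DKO, with 7 of them well above background on all 3 WT arrays and 11 on all 3 arrays of Bach2 KO and of DKO. The 9 B cell markers summed to 0.433 to 0.585 in WT, 15.9 to 28.0 in Bach2 KO and 30.9 to 80.9 in DKO, most of it from Blnk in the genotypes without Bach2, with Ebf1 at background on all arrays. The 9 dendritic cell markers summed to 52.4 to 73.0 in WT, 39.0 to 81.5 in Bach1 KO, 84.8 to 90.9 in Bach2 KO and 73.5 to 88.8 in DKO. Most of that sum in WT is Siglech, with lower means without Bach2 (5.76, 4.90 and 5.36 in WT, Bach2 KO and DKO). Zbtb46 also had lower means there, and the other dendritic cell markers, such as Ccr7 (-2.29, 4.92 and 4.46), had higher ones. The 13 T and NK cell markers summed to 78.5 to 147 in WT, 37.0 to 44.9 in Bach2 KO and 39.9 to 58.6 in DKO. Most of the T and NK cell sum in WT is Cd2, whose means were 6.70, 3.45 and 2.42 (WT, Bach2 KO, DKO). Il7r (-6.94, 4.69 and 5.18), Lck (-3.26, 0.36 and 1.24), Cd3g (-6.85, -2.41 and -1.85) and Cd3d (-7.12, -3.71 and -2.22) had higher means without Bach2. Of the 13 markers, 6 were well above background on all 3 WT arrays against 8 on those of Bach2 KO and 8 on those of DKO. The 10 neutrophil markers summed to 99.3 to 140 in WT, 52.1 to 68.9 in Bach2 KO and 73.3 to 116 in DKO, with Csf3r as the largest share, at means of 6.57, 5.74 and 6.09. S100a9 had means of -6.13, -3.22 and -1.13 and S100a8 of 1.67, 0.13 and 2.71. The 12 epithelial markers summed to 13.3 to 16.2, 20.7 to 23.6 and 19.8 to 24.1, with Cdh1 at means of 2.13, 4.402 and 4.32. Epcam had lower means without Bach2 (2.78, -1.95 and -3.56), as did Scgb1a1 (0.68, -1.45 and -0.64). The part of these markers in the fatty acid oxidation values was not tested.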

How the data were processed

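The scanner files hold a fluorescence intensity for each spot of 12 single-colour Agilent arrays, background-subtracted and detrended within the array by Feature Extraction (version 10.7.3.1 per the file headers, 9.1 per the submitters' processing notes). The authors' deposited series matrix holds log2 values of fewer probes and served as an alternative. Spots flagged as outliers in the deposited files (136 to 733 per array) were left out. Signals were put on the log2 scale minus the array's 75th percentile. A probe was kept if 1 genotype or more had it well above background in all 3 mice (30867 of 55681 probes), probes were named by accession through RefSeq (GRCm38.p6; 26413 probes by 1 gene, the others kept unnamed), and the brightest probe stood for a gene. The fit used limma 3.58.1 in R 4.3.3 (lmFit, eBayes with trend) on 4 genotype means and all 12 arrays (8 residual degrees of freedom), with Benjamini-Hochberg adjustment over 23120 genes or transcripts, and was tested on simulated data. The number of arrays limits the precision.

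Values on every array are given for up to 10 genes per direction with the largest called difference in Bach2 KO or DKO against WT, for any gene called in Bach1 KO against WT, DKO against Bach2 KO or the interaction, and for Ppara, Ppard, Ppargc1b and Cpt1a; up to 3 genes per direction with the smallest adjusted p in Bach2 KO against WT are named from each further list, and 1 such gene is not reported here. A gene at background throughout a group is given as a bound, the bright group's mean over, per array, the lowest signal called well above background. The genes, lists and tests were chosen with earlier results of these data known. Alternatives were background correction (normexp on median signals, chosen after the files were seen, as was running all alternatives on the further lists), scaling, filter, probe choice, eBayes settings, the groups alone, replicate and slide blocks, threshold, and leaving out each array. Replicate numbers did not enter the fit. As a check of pairing, deviations from the group means were correlated between mice. All 3 same-numbered pairs of Bach2 KO and DKO mice (r 0.116, 0.118 and 0.123) lay above the differently numbered pairs of these genotypes. In every other comparison at least 1 same-numbered pair lay at or below 0.1. Differently numbered WT and Bach2 KO mice reached 0.20, so such values cannot establish a pairing. The labels state no pairing, and a replicate block was run only as an alternative.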

Additional observations from a re-analysis of the deposited data

How the results depend on the processing

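Over the alternatives, 280 counts of the fatty acid oxidation genes stayed within 1.5 times the value given and 46 did not. Counts of 0 that stayed at 0 are among the 280, as in Bach1 KO against WT and the interaction with quantile normalization. Of the medians, 127 stayed within the spread between mice (0.16) and 12 did not. Of called differences of single genes 1357 kept their call, 160 lost it and 7 reversed. The cause of the changes was not tested except where fewer genes or arrays entered. For most alternatives the share of all genes called is given neither here nor above. Among these are the runs without 1 array, the replicate block and the threshold of 0.01. Counts under such settings alone therefore do not set the fatty acid oxidation genes apart. With quantile normalization the Bach2 KO counts were 6 higher and 11 lower with a median of -0.20, the medians of DKO against WT, Bach1 KO and Bach2 KO were -0.51, -0.54 and -0.22, that of the interaction was -0.28, and DKO against Bach2 KO gave 1 higher and 4 lower. The median over all genes was -0.30 in Bach2 KO and -0.28 in DKO against WT, and moved to -0.15 and -0.12 with quantile normalization and -0.53 and -0.42 with scaling to the array median. That scaling gave a Bach2 KO median of -0.94 for the fatty acid oxidation genes, and averaging all probes of a gene gave a DKO median of -0.67. With the series matrix the medians were -0.98 for DKO against Bach1 KO and -0.21 for DKO against Bach2 KO. In Bach2 KO against WT 1 gene was higher with the groups of the comparison alone, on slide 1 alone and at an adjusted p under 0.01. In DKO against WT 1 was higher with the series matrix, no filter, the filter on all 12 arrays, the groups alone, slide as a random block and at 0.01. At 0.01, DKO against Bach1 KO gave 1 higher and 8 lower, and DKO against Bach2 KO 0 lower. DKO against Bach2 KO gave 1 higher with normexp, the series matrix, the filter on all 12 arrays and the groups alone, and 2 lower with normexp, the series matrix and the groups alone.

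Reversed differences were Acaa2 (0.0085) and Hadhb (0.12) in Bach2 KO with quantile normalization, Cpt1a (0.027), Cpt2 (0.21) and Decr1 (0.46) in Bach2 KO and Cpt2 (0.47) in DKO when all probes of a gene were averaged, and Decr1 (1.70) in Bach2 KO with the series matrix. Leaving out each array gave 1 to 4 higher and 14 to 18 lower genes in Bach2 KO, 1 to 2 and 11 to 17 in DKO against WT, 1 to 2 and 10 to 17 against Bach1 KO, and 0 to 1 and 0 to 2 against Bach2 KO, where the median ran from -0.195 to 0.057; the interaction median ran from -0.14 to 0.16.

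Over 18 same-numbered pairs of mice from different genotypes the correlation of their deviations ran from -0.14 to 0.39 (median 0.035), with 6 above 0.1, and over 36 differently numbered pairs the median was -0.046, with 5 above 0.1. With the replicate block 19 genes fell and 2 rose in Bach2 KO and 16 fell and 1 rose in DKO against WT, 16 fell and 2 rose in DKO against Bach1 KO, and 1 fell and 0 rose in DKO against Bach2 KO, where Ehhadh kept its call. Brightness limits Crat, whose probe lies near background, and Bach2, whose brightest probe is dim. For Acot2 the limit is WT replicate 3, where the probe was not well above background.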
